A study of Homo sapiens with 3 samples.

Results

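The mitochondrial carriers of the SLC25 family were followed in the RNA of HEK293 cells, a human line established from embryonic kidney. Members are the genes whose symbol in the count table is SLC25A followed by a number, which gave 42 of 17595 endogenous genes. They were grouped by the substrate they are known to carry. The rule used no measured value, but members and contrasts were chosen with earlier results of these data known. The libraries carried random-base identifiers for molecules. The series has 1 group of 3 libraries, named here 20, 21 and 23 after the index in their column headings. The cells were unmodified HEK293 grown in DMEM with glutamine and 10% fetal calf serum, with no treatment or comparison group named. Each library came from 1000 lysed cells, of which a share equal to 100 cells was amplified by 18 PCR cycles. Tags were taken at the 5′ end of each polyadenylated RNA, so a transcript yields its tags at its start whatever its length. Values per kb of transcript are therefore given only to show how results move with length, and are not read as levels. Since nothing says that the libraries came from separate cultures, the spread between them may be technical. In such bulk RNA, fewer cells expressing a gene and less RNA per cell cannot be told apart.

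SLC25 proteins sit in the inner mitochondrial membrane and exchange solutes between the matrix and the space outside it, mostly as strict exchange of a substrate against another. They supply ADP and phosphate to ATP synthase, move the carbon and nitrogen of the shuttles that link cytosol and matrix, and bring in cofactors and iron. In proliferating cells they feed citrate to fat synthesis and aspartate to nucleotide synthesis. They are made in the cytosol without a cleaved presequence in most cases, and are inserted by the TIM22 complex with the help of small TIM chaperones.

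The RefSeq promoter table of GRCh38.p14 held 36 of the 42 members. The windows of the ADP/ATP carrier genes SLC25A5, SLC25A6 and SLC25A4 and of the phosphate carrier gene SLC25A3 are shown because the results turn on how far apart these genes' levels lie. Each holds the 250 bases before the annotated start and the first 50 bases from it, 5′ to 3′ on the gene's strand. Capitals mark the motifs searched. The ETS (GABPA) motif was CCGGAAG. The YY1 motif was AAGATGGCG. The CCAAT box and the TATA box (TATAAA) were searched by those letters. The NRF1 motif was CGCATGCG. Both strands were searched, and no motif contains another.
SLC25A5, chrX:119468194-119468493, plus strand: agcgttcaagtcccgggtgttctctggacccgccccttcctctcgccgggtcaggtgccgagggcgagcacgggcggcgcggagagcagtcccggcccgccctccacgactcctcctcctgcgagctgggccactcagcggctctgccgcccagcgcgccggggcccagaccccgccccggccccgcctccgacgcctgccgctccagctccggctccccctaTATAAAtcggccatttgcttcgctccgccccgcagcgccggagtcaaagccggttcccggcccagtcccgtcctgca
SLC25A6, chrX:1392064-1392363, minus strand: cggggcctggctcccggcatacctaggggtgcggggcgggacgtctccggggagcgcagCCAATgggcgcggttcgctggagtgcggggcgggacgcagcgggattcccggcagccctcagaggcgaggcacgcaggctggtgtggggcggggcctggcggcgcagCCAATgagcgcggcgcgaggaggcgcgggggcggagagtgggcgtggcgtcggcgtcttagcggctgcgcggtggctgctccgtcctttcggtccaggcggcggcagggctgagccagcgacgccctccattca
SLC25A4, chr4:185143016-185143315, plus strand: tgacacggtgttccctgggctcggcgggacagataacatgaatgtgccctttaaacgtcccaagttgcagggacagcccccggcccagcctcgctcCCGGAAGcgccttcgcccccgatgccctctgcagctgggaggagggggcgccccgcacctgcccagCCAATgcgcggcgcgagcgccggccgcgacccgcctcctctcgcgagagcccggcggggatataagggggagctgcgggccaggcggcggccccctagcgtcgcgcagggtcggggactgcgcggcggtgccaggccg
SLC25A3, chr12:98593436-98593735, plus strand: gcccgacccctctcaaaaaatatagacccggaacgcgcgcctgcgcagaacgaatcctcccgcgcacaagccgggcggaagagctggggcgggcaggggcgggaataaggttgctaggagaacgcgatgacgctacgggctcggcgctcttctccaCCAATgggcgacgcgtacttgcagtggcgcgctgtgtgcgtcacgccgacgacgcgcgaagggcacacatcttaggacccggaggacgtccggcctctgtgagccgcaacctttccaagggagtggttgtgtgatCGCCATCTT

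The ADP/ATP carrier genes, which encode closely related proteins, differed in their motif matches. Counting the first transcribed base as 1, the TATAAA of SLC25A5 began at -27, and SLC25A6 and SLC25A4 held no exact TATAAA. The SLC25A4 window does hold tataag, which differs from TATAAA in its last letter and was not counted. The CCAAT matches began at -191 and -84 in SLC25A6 and at -88 in SLC25A4, and SLC25A5 had none. SLC25A4 also held CCGGAAG, from -154. In SLC25A3 a CCAAT began at -94 and the YY1 letters, on the opposite strand, at 42. Among the 36 members, TATAAA occurred in 3 (8.33%), against 7.59% of 8282 genes with at least 10 counts and a promoter entry. The matches of SLC25A26 (-148 and -168, by window) and SLC25A18 (-193) lay farther from the start than that of SLC25A5 (-27). For genes with several windows, a match in any window counted. CCAAT occurred in 19 members (52.8%) and CCGGAAG in 10 (27.8%), against 44.5% and 24.0% of the 8282 genes. The YY1 letters occurred in 1 member (2.78%) against 5.39%, and the NRF1 letters in 0 of 36 against 4.94%. Over all 27305 genes of the table the shares were 14.0% for TATAAA, 39.7% for CCAAT, 12.2% for CCGGAAG, 2.14% for YY1 and 2.46% for NRF1. The median GC content of the members' windows was 66.2%, ranging from 46.0% to 80.3%, beside 65.2% for genes with at least 10 counts. A match describes letters and is no measurement of binding.

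Endogenous counts were 1330877 to 1545594 per library, and levels are counts per 1000000 of them (CPM), where 1 count equals 0.647 to 0.751 CPM. The spiked control RNAs took 53295 to 56903 counts. All 7 markers of HEK293 lines had counts in the table, VIM and KRT18 among them, with a summed level of 600.4 to 633 CPM. Of markers of tissues with their own carrier forms, striated muscle (2 of 5 listed) reached at most 1.29 CPM in sum, liver (2 of 5) 2.25 CPM, erythroid cells (1 of 5) 3.01 CPM, fat (1 of 5) 0.751 CPM and testis germ cells (0 of 5) 0 CPM. CKM, ALB, HBB, ADIPOQ and PRM1, which define those tissues, are not listed in the table. Neuronal markers (4 of 5) summed to 7.51 to 18.8 CPM, with GAD1 the most abundant at 37 counts in all.

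A few carriers made up most of the family's RNA. Together the 42 genes took 0.454%, 0.446% and 0.439% of endogenous counts in libraries 20, 21 and 23. SLC25A5 alone gave 39.9% of the family's counts, the first 3 genes gave 64.9% and the first 6 gave 79.6%. The remaining genes formed a long tail. By mean level, 7 members reached at least 100 CPM, 21 lay between 10 and 100 CPM, 14 lay under 10 CPM, and 3 lay under 1 CPM. The member median was 18.7 CPM, beside 7.16 CPM over all endogenous genes. At least 10 CPM was reached by 28 members (66.7%), against 44.6% of all endogenous genes, and at least 100 CPM by 16.7% against 9.91%. A count was present in every library for 40 of the 42 members, where 72.6% of all endogenous genes had one, and SLC25A18 and SLC25A52 were the others. A further 6 genes of the family by name, SLC25A2, SLC25A10, SLC25A31, SLC25A34, SLC25A41 and SLC25A47, have no row and are not analysed here. Every endogenous row held at least 1 count, so the shares and medians above describe detected genes only.

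**Figure D1:**
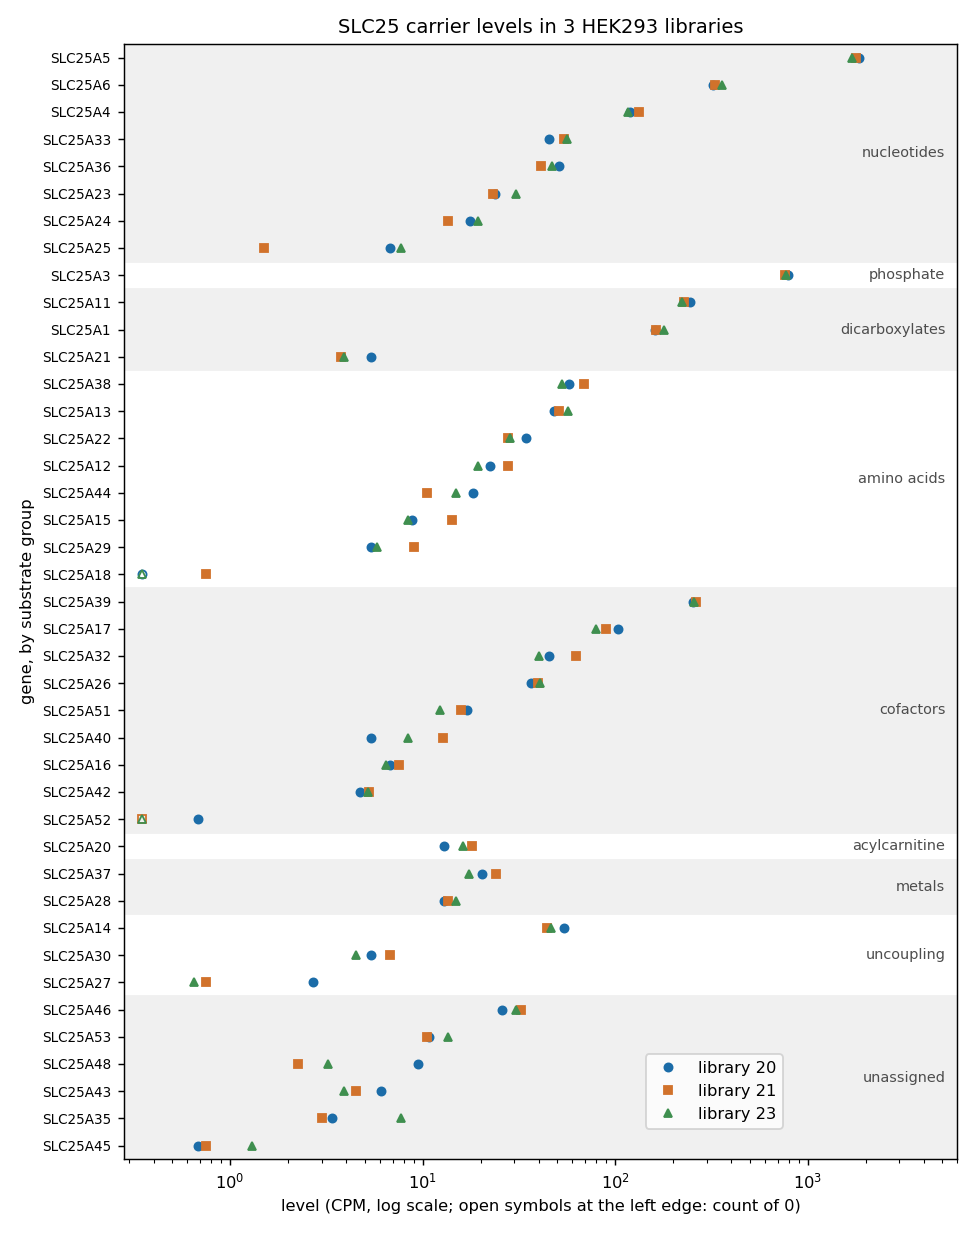
Level of 41 of the 42 carriers (y axis, grouped by substrate) in CPM on a log axis, 1 symbol per library; open symbols at the left edge are counts of 0. SLC25A5 lies between 1701 and 1854 CPM in the 3 libraries, above every other carrier.

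The order of the carriers was clearer at the top than below. The 8 most abundant were SLC25A5, SLC25A3, SLC25A6, SLC25A39, SLC25A11, SLC25A1, SLC25A4 and SLC25A17. The library range of each of these did not overlap that of its next lower neighbour. SLC25A39 and SLC25A11 still lay close, with 374 and 361 counts in library 20, and their order was not tested. Of 41 pairs of neighbours in the order, 30 had ranges over the 3 libraries that overlapped. The run from SLC25A38 (59.9 CPM) to SLC25A36 (46.5 CPM) was such a stretch of overlapping neighbours, as was that from SLC25A22 (30.3 CPM) to SLC25A21 (4.35 CPM). Dividing by transcript length kept the first 6 in place, and 9 of the first 10 stayed in the first 10. SLC25A4, whose longest RefSeq-matched transcript has 4440 bases, moved from rank 7 to rank 11, and SLC25A14 entered at rank 10. Across the 42 members Spearman's rho between level and length was -0.15, and across 10473 genes with at least 10 counts it was -0.25. Both describe genes that share libraries.

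Nucleotide carriers took the largest share of the family's counts, and nearly all of it came from the ADP/ATP carriers. The 8 listed members took 53.5% ± 0.22 of the family's counts (SD, n = 3 libraries), and 7 of them averaged at least 10 CPM. SLC25A5, the ADP/ATP carrier of dividing cells, which exports ATP made in the matrix in exchange for ADP, stood at 1854, 1791 and 1701 CPM in libraries 20, 21 and 23. The ubiquitous SLC25A6 followed at 321, 332 and 361 CPM, and SLC25A4, the muscle and heart form, at 119, 134 and 116 CPM. The ranges of these levels over the 3 libraries do not overlap between the 3 genes. SLC25A6 exceeded SLC25A4 by 1.45 ± 0.16 on the log2 scale (SD, n = 3 libraries, limma adjusted p = 7.4e-60), and per kb of transcript the ratio of pooled counts was 5.94 instead of 2.76. Scaled by the spiked RNAs, added at 20000 molecules per cell, SLC25A5 came to 894 to 962 molecules per cell and SLC25A4 to 61.9 to 66.8. That scale takes spiked and cellular RNA to be captured alike, which was not tested. SLC25A5 and SLC25A6 have 9 and 6 named pseudogenes in GENCODE v29, and SLC25A6 lies in the part shared by the X and Y chromosomes, and how reads of such copies were assigned is not known here. SLC25A31, the testis form, has no row, and its contrast with SLC25A5 was not tested.

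The limma p-values need a caution that applies throughout. Each contrast comes from a fit of all genes with at least 10 counts against the same reference gene, adjusted over 171348 ratios to 15 reference genes. In that fit 84.8% of all ratios passed the threshold of 0.05, so a call says that a pair differed from a ratio of 1, and such calls are common among genes. For 13 of the 15 references limma set the prior degrees of freedom to infinity, and p-values far below the threshold then rest on the trend of spread with level, not on the 3 values of the ratio. An exact sign permutation over 3 libraries cannot give a p below 0.25. Of 18 contrasts chosen, 15 could be tested, and 13 passed, 11 with the first gene higher and 2 with it lower. The choice was made with earlier results of these data known. Capture can differ between RNAs, so a ratio of counts need not equal a ratio of molecules.

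The other nucleotide carriers averaged between 5.35 and 51.9 CPM. Pyrimidine nucleotide carriers, which bring precursors to mitochondrial DNA and RNA synthesis, lay close together. SLC25A33 had 45.4, 54.1 and 56.3 CPM and SLC25A36 had 50.8, 41.3 and 47.2 CPM, so their ranges overlapped. Their log2 ratio, SLC25A36 over SLC25A33, was -0.16 ± 0.29 (limma adjusted p = 0.31), and the 95% counting interval of the pooled ratio was 0.739 to 1.09. This contrast passed without library 20 (-0.32, limma adjusted p = 0.031) and per kb (-0.43, limma adjusted p = 0.014). The calcium-regulated ATP-Mg/phosphate carriers, which adjust the adenine nucleotide pool of the matrix, were led by SLC25A23 at 23.7, 23.3 and 30.4 CPM. SLC25A24 stood at 17.6, 13.5 and 19.4 CPM, below it in each library by -0.61 ± 0.17 on the log2 scale (limma adjusted p = 0.0019). SLC25A25 had 10, 2 and 12 counts (6.78, 1.50 and 7.76 CPM), with library 21 apart from the others. SLC25A24 exceeded it by 1.84 ± 0.91 (limma adjusted p = 0.040), and missed the threshold when library 20 was left out (2.09, limma adjusted p = 0.30), when library 23 was (2.11, limma adjusted p = 0.27) and per kb (1.64, limma adjusted p = 0.067).

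The phosphate carrier was the second most abundant member. SLC25A3, which brings in the phosphate that ATP synthase joins to ADP and also carries copper for cytochrome c oxidase, stood at 795, 759 and 775 CPM. Its spread was small, with a coefficient of variation of 2.32% where counting alone gives 2.98%. It made up 17.4% ± 0.34 of the family's counts (SD, n = 3 libraries). SLC25A5 exceeded it by 1.20 ± 0.056 on the log2 scale (limma adjusted p = 3.7e-35), or 2.29-fold in pooled counts with a 95% counting interval of 2.20 to 2.39, and 3.43-fold per kb.

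**Figure D2:**
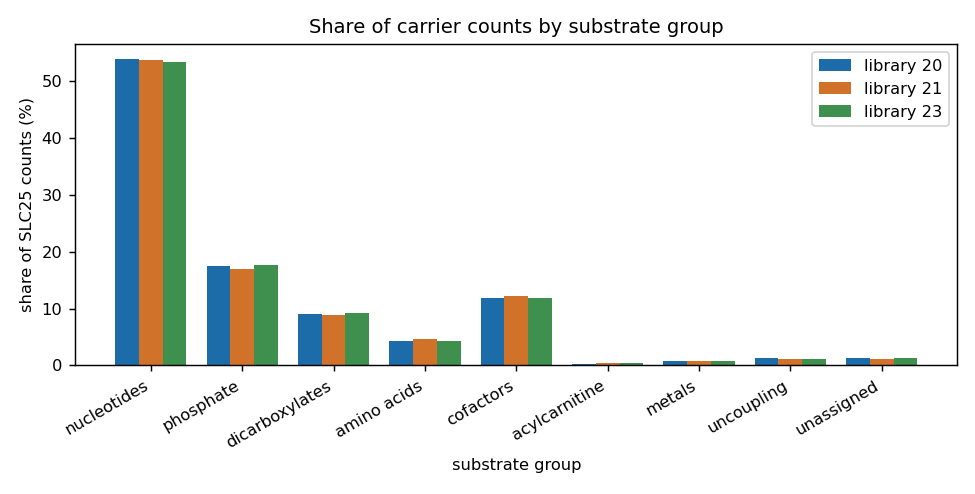
Share of all SLC25 counts (y axis, %) taken by each substrate group (x axis), 1 bar per library. Nucleotide carriers took 53.3% to 53.7%, and the phosphate carrier 17.0% to 17.7%.

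The listed carriers of dicarboxylates and citrate were a pair of abundant genes and a rare gene. SLC25A10, also of this group, has no row, and its contrast with SLC25A11 was not tested. SLC25A11, the oxoglutarate/malate carrier of the malate-aspartate shuttle, had 245, 229 and 222 CPM. SLC25A1, which exports citrate for the synthesis of fatty acids and sterols, had 161, 162 and 179 CPM. Their ranges did not overlap, and SLC25A11 exceeded SLC25A1 in 3 of 3 libraries, with a mean log2 ratio of 0.47 ± 0.15 (SD, limma adjusted p = 6.7e-08). Per kb the pooled ratio was 1.20 instead of 1.38. SLC25A11 shares exon sequence with RNF167 on the opposite strand in GENCODE v29, and the use of strand in counting is not given in the sources used here. SLC25A21, the carrier of oxoadipate from lysine and tryptophan breakdown, had 8, 5 and 6 counts, and its exons overlap those of PAX9. The group took 9.04% ± 0.18 of the family's counts (SD, n = 3 libraries).

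No amino acid carrier averaged 100 CPM. The 8 listed genes took 4.43% ± 0.25 of the family's counts (SD, n = 3 libraries), and 6 averaged at least 10 CPM. SLC25A38, which supplies glycine to heme synthesis, led with 57.6, 69.1 and 53.1 CPM. The aspartate/glutamate carriers are the calcium-regulated entry of glutamate that sends aspartate to the cytosol. SLC25A13 (citrin) had 48.1, 51.1 and 56.9 CPM, and SLC25A12 (aralar) had 22.4, 27.8 and 19.4 CPM. The ranges did not overlap, and SLC25A13 exceeded SLC25A12 by 1.17 ± 0.34 on the log2 scale (limma adjusted p = 2.5e-07), or 2.12-fold per kb.

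The glutamate carriers were unequal in level. SLC25A22 had 34.6, 27.8 and 28.5 CPM, whereas SLC25A18 had a single count, in library 21. A count of 0 allows up to 2.03 CPM in library 20 and 1.94 CPM in library 23. The pooled ratio of 132 counts to 1 has a 95% counting interval of 23.3 to 5253, and the contrast passed the threshold (limma adjusted p = 4.1e-13). SLC25A15, the ornithine carrier of the urea cycle, had 8.81, 14.3 and 8.41 CPM, and its relative SLC25A2 has no row. SLC25A44, the carrier of branched-chain amino acids, averaged 14.6 ± 3.90 CPM (SD, n = 3 libraries). The basic amino acid carrier SLC25A29 had 5.42, 9.02 and 5.82 CPM. Its close relative SLC25A20, which takes acylcarnitines into the matrix for fatty acid oxidation, had 12.9, 18.0 and 16.2 CPM, above it by 1.20 ± 0.23 on the log2 scale (limma adjusted p = 0.00032). That call missed the threshold without library 23 (1.08, limma adjusted p = 0.057).

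Cofactor carriers held the third largest share of the family, with SLC25A39 their most abundant gene. The 10 genes took 12.0% ± 0.22 of the family's counts (SD, n = 3 libraries). SLC25A39, needed for glutathione in the matrix, had 253, 263 and 258 CPM, the smallest spread among members with at least 100 counts (1.86%). Its paralog SLC25A40 had 5.42, 12.8 and 8.41 CPM, and its exons overlap those of DBF4. SLC25A39 exceeded it by 4.89 ± 0.57 on the log2 scale (limma adjusted p = 6.7e-25), or 29.5-fold in pooled counts and 74.3-fold per kb. SLC25A17, a carrier of peroxisomes for coenzyme A and flavin nucleotides, had 104, 89.4 and 79.6 CPM. SLC25A32, for folate and flavin, averaged 49.3 ± 11.6 CPM, and SLC25A26, for S-adenosylmethionine, 39.1 ± 2.19 CPM (SD, n = 3 libraries).

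The NAD carriers were unequal as well. SLC25A51 had 16.9, 15.8 and 12.3 CPM, and SLC25A52 had a single count, in library 20. The pooled ratio of 65.0 has a 95% counting interval of 11.3 to 2606 (limma adjusted p = 8.3e-12 for the per-library ratio). SLC25A51 has 3 named pseudogenes in GENCODE v29. The promoter windows of SLC25A51 and SLC25A52 hold similar stretches of sequence, and how reads were assigned between these genes is not known here. Genes linked to coenzyme A import were low and did not pass the test against each other. SLC25A16 had 10 counts in every library (6.78, 7.51 and 6.47 CPM) and SLC25A42 had 7, 7 and 8 counts (4.74, 5.26 and 5.18 CPM). The log2 ratio of SLC25A42 over SLC25A16 was -0.43 ± 0.10 (limma adjusted p = 0.14), and the 95% counting interval of the pooled ratio was 0.403 to 1.31. Per kb of transcript the direction turned to 0.64 (limma adjusted p = 0.022), as SLC25A16 has a transcript of 6529 bases. Dividing by length is not called for with 5′ tags.

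Both mitoferrins, the iron importers of the inner membrane, averaged between 10 and 100 CPM. SLC25A37, known as the erythroid form, had 20.3, 24.0 and 17.5 CPM, and SLC25A28, the form of other tissues, had 12.9, 13.5 and 14.9 CPM. The ranges did not overlap. SLC25A28 lay below SLC25A37 in each library, by -0.56 ± 0.30 on the log2 scale (limma adjusted p = 0.032). The threshold was missed without library 20 (-0.52, limma adjusted p = 0.25) and without library 21 (-0.44, limma adjusted p = 0.15). Per kb the log2 ratio turned to 1.17 in favour of SLC25A28 (limma adjusted p = 2.8e-07), because the transcripts have 1451 and 4823 bases. Tags taken at the 5′ end do not call for that division. Of the erythroid markers HBA1 alone was listed, with 0, 4 and 2 counts.

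Relatives of the uncoupling proteins were led by SLC25A14. SLC25A14 (UCP5) had 54.2, 44.3 and 46.6 CPM. SLC25A30, known from kidney, had 5.42, 6.76 and 4.53 CPM, and SLC25A27 (UCP4), known from brain, had 4, 1 and 1 counts. SLC25A14 exceeded SLC25A30 by 3.05 ± 0.35 on the log2 scale (limma adjusted p = 7.3e-37) and SLC25A27 by 5.02 ± 0.76 (limma adjusted p = 2.2e-12). Per kb of transcript these log2 ratios were 4.14 and 5.79, and with a pseudocount of 2 that to SLC25A27 was 4.25. The exons of SLC25A30 overlap those of TPT1-AS1. The genes UCP1, UCP2 and UCP3, named as uncoupling proteins, carry other symbols and are not members. Of these UCP2 had 117, 120.2 and 131 CPM, above each of the 3 relatives, UCP3 had 2 counts in all, and UCP1 has no row.

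**Figure D3:**
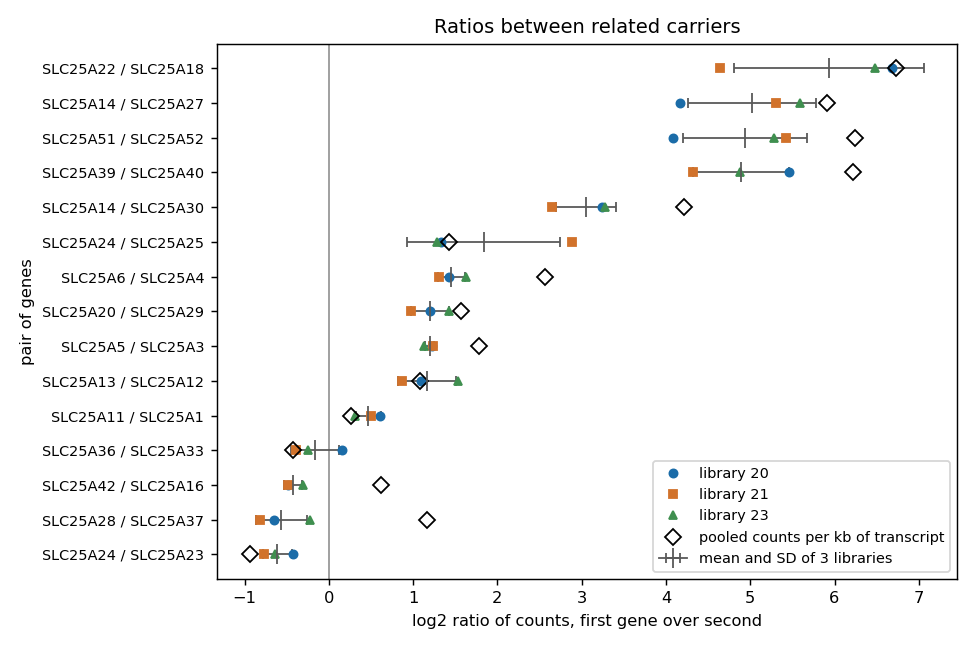
Log2 ratio of counts (x axis) for the 15 tested pairs of carriers (y axis), 1 symbol per library with the mean and SD; diamonds give pooled counts per kb of transcript. The pairs that cross 0 per kb are SLC25A42 over SLC25A16 and SLC25A28 over SLC25A37.

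Members to which the grouping used here gave no substrate were mostly rare. SLC25A46, which lies in the outer membrane and takes part in mitochondrial fission and lipid transfer, had 25.7, 32.3 and 30.4 CPM. SLC25A53 had 10.8, 10.5 and 13.6 CPM, and SLC25A43 averaged 4.83 CPM. SLC25A48 had 14, 3 and 5 counts and SLC25A35 had 5, 4 and 12, so that in each a single library stood above the others. Their exons overlap those of CXCL14 and RANGRF on the opposite strand. SLC25A45 had 1, 1 and 2 counts.

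No carrier differed between libraries after adjustment. Of 38 members with at least 10 pooled counts, 0 passed the exact binomial test in any pair of libraries (2-sided, adjusted by Benjamini-Hochberg across every gene and pair tested), where 0.56% of 11424 genes did. A chi-square test over the 3 libraries also called 0 members and 0.727% of genes. At an unadjusted p under 0.05 in at least 1 pair there were 7 members (18.4%), near the 15.9% of all genes. Among them were SLC25A5, SLC25A17, SLC25A25, SLC25A32, SLC25A40 and SLC25A48. The lowest belonged to SLC25A5 between libraries 20 and 23 (log2 difference, 23 over 20, of -0.12, exact binomial p = 0.0017, adjusted p = 0.23). The coefficient of variation of SLC25A5 was 4.31% where counting alone gives 1.97%. Over the 20 members with at least 100 counts the median was 10.5%, beside 11.1% from counting alone, and over 5204 such genes it was 9.15% beside 10.7%. Of the 20 members, 12 lay below their counting error. A coefficient of variation from 3 values often does so under counting alone, so the number shows no spread smaller than counting gives.

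**Figure D4:**
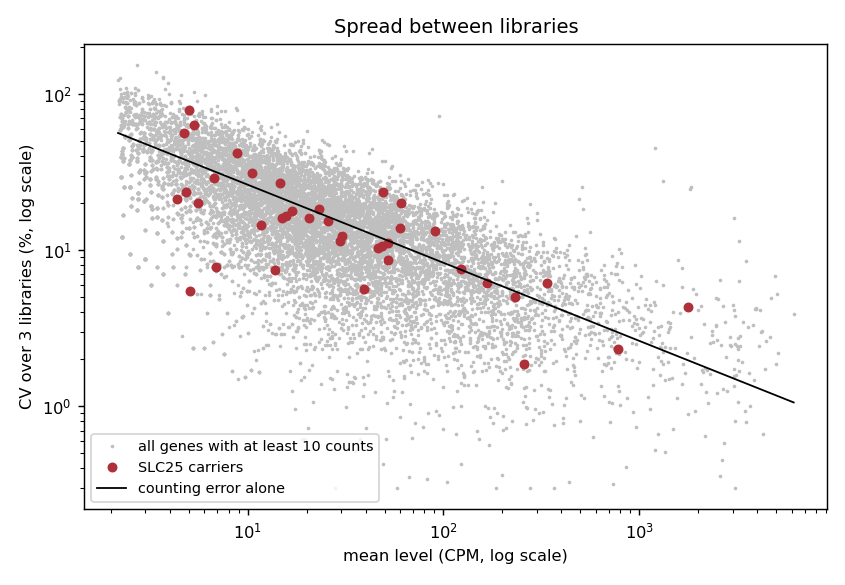
Coefficient of variation over the 3 libraries (y axis, %, log scale) against mean level (x axis, CPM, log scale) for genes with at least 10 counts; carriers are in red, the line is counting error alone, and values under 0.3% are drawn at 0.3%. Carriers scatter about the line, and SLC25A5 at 4.31% lies above its counting error of 1.97%.

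Genes that import the carriers had a higher median level than the carriers. Of 13 genes for outer membrane receptors, small TIM chaperones and the TIM22 complex, 12 had a row and each of these averaged at least 10 CPM, with a median of 228 CPM beside 18.7 CPM for the carriers. TIMM13 had 576, 610.1 and 589 CPM, TOMM22 had 575, 518 and 541 CPM, and TIMM8B had 451, 452 and 427 CPM. The channels of the outer membrane, through which the same solutes pass, lay close together, with VDAC1 at 586, 599 and 533 CPM, VDAC2 at 553, 588 and 518 CPM and VDAC3 at 562, 528 and 499 CPM. MTCH2 and MTCH1, carrier-fold proteins of the outer membrane, averaged 345 and 188 CPM. Of the other transporters of the inner membrane, 10 of 11 averaged at least 10 CPM, with a median of 33.7 CPM. MPC2 and MPC1, the pyruvate carrier, averaged 270 and 190 CPM, and the serine carrier SFXN1 averaged 248 CPM. All 15 partner enzymes averaged at least 10 CPM, with a median of 79.7 CPM. The malate dehydrogenases of the malate-aspartate shuttle, MDH2 and MDH1, averaged 684 and 464 CPM, above SLC25A11 (232 CPM). PPIF, the cyclophilin of the matrix, averaged 250 CPM.

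**Figure D5:**
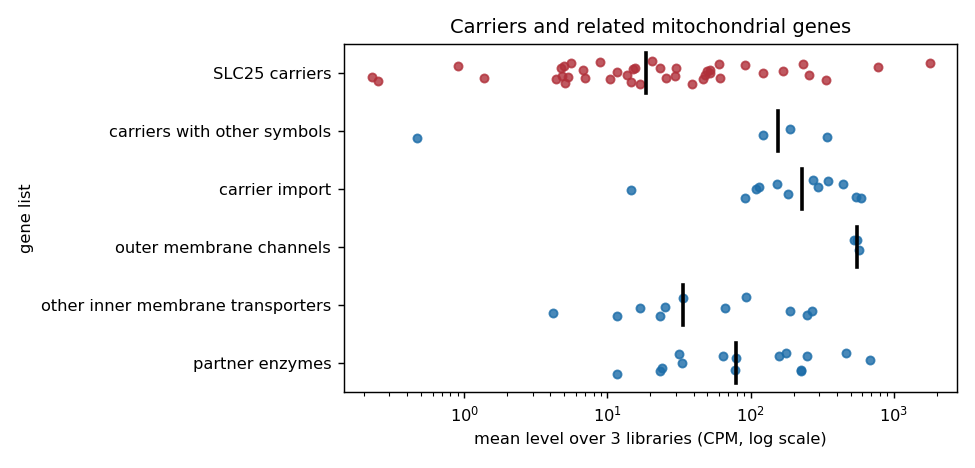
Mean level over 3 libraries (x axis, CPM, log scale) of the carriers and of 5 lists of related genes (y axis), 1 point per gene, with the list median as a bar. The carriers spread from 0.226 to 1782 CPM around 18.7 CPM, and the import list has its median at 228 CPM.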

How the data were processed

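RNA 5′ ends of 3 HEK293 libraries were analysed from raw counts per gene deposited by the authors, with no normalization. The submitters' processing notes list STAR 2.4.0a, cutadapt 1.2.1 and the build hg19 (GRCh37). The counting tool, annotation, use of strand and collapsing of random-base identifiers are not stated, so counts may be of reads or molecules, and counting intervals cover counting error only. The table has 17675 rows, 80 of spiked controls. The columns carry no replicate number and were used as unnumbered replicates.

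The members, gene lists and contrasts were chosen with earlier results of these data known. CPM used endogenous totals. Libraries were compared per gene by an exact binomial test (at least 10 pooled counts). Contrasts used limma (3.58.1, trended) on log2 ratios with a pseudocount of 0.5, all genes against each reference. Spread was also taken from edgeR 4.0.16 and DESeq2 1.42.0. Adjustment was by Benjamini-Hochberg over all genes, at 0.05. Both tests were run on simulated data, with counting error only for the binomial test and a reference gene without noise for limma. Those runs therefore do not check spread between libraries or the noise of a reference gene. Transcript lengths and overlaps came by symbol from GENCODE v29 (GRCh38), without coordinates; the length is that of the longest basic transcript with a RefSeq match. Values per library are given for the 2 highest members of each group and for both genes of each contrast, and up to 3 related genes are named per list. UCP1, UCP3 and the per-library counts of SLC25A21, SLC25A35, SLC25A45 and SLC25A48 fall outside that rule and were added after their values were seen. Alternatives were scaling, filters, pseudocounts, length, other tests and leaving out each library. Protein sequences were not used here, and the values of 1 member are not reported here by name, though counts, shares and medians of the family include it. Work was done in Python 3.11.15, scipy 1.17.1 and R 4.3.3.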

Additional observations from a re-analysis of the deposited data

How the results depend on the processing

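The family's share of counts was 0.446% under TMM, 0.444% under median-of-ratios and 0.446% under spike scaling. It was 0.430% when spikes entered the denominator, which that construction lowers, and 0.443% to 0.450% when each library was left out. Between 27 and 29 members reached 10 CPM in all settings tried, and 0 members were called between libraries in each. Contrasts past the threshold numbered 13 with either other pseudocount or minimum count (14 contrasts testable at 50 counts) and by the exact binomial test, 14 per kb of transcript, and 11 to 12 with a library left out. In settings chosen after the data were seen there were 14 without the trend, where SLC25A42 over SLC25A16 (-0.43) passed, and 10 of 12 with the spread of both genes from a single fit, which left out 3 contrasts whose reference had under 10 counts. Direction turned per kb for SLC25A28 over SLC25A37 (1.17) and SLC25A42 over SLC25A16 (0.64), which is the effect of dividing by unequal lengths. For the contrasts against a gene with 1 count, the log2 ratio rested on the pseudocount: SLC25A22 over SLC25A18 was 7.62 at 0.1 and 4.32 at 2, and SLC25A51 over SLC25A52 was 6.60 at 0.1 and 3.36 at 2. Over 28 members the median spread beyond counting error was 5.91% by edgeR and 15.7% by DESeq2, and over the 20 members with at least 100 counts the coefficient of variation, which includes counting error, had a median of 10.5%. These are different quantities over different sets. Depth limits all members under 10 CPM, which rest on few counts per library.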

Other observations

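Rows with names near those of the carriers were rare. The antisense genes SLC25A5-AS1 and SLC25A21-AS1 had 2, 3 and 2 counts and 5, 0 and 6 counts in libraries 20, 21 and 23. The pseudogene SLC25A6P2 had 1, 0 and 0. Exons of 16 members overlap those of another gene in GENCODE v29, and for 8 of them that gene also has a row in the table. SLC25A32 with DCAF13 and SLC25A26 with LRIG1 are among these. In GENCODE v29, 13 members have named pseudogenes, with 5 each for SLC25A1 and SLC25A15 and 2 each for SLC25A3, SLC25A24 and SLC25A39. Chosen after their values were seen, among the partner enzymes, FECH, the ferrochelatase that uses imported iron, had 23, 46 and 31 counts and GLUD1, glutamate dehydrogenase, had 105, 63 and 115, so library 21 was the highest for the first and the lowest for the second.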
